A study of Mus musculus with 6 samples.

Results

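The 10 genes described here encode receptors of the P2Y branch of the G protein-coupled receptors and its proton- and lysolipid-sensing relatives, measured in mouse LT-CML stem cells, the long-term stem cells of a chronic myelogenous leukaemia (CML) model. They were chosen by name from a table of 36976 genes, with their values in both genotypes already known, so their differences between the genotypes are given as descriptions without a test. *P2ry1*, *P2ry2*, *P2ry12*, *P2ry13* and *P2ry14* encode nucleotide or nucleotide-sugar receptors. *Gpr171* encodes a P2Y-like receptor for which a peptide ligand has been described. *Gpr65* and *Gpr132* encode proton sensors, the latter also linked to lysolipids and oxidised fatty acids, and *P2ry10* and *Gpr34* encode lysophosphatidylserine receptors.

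The RNA-Seq compared cells with and without *Gdpd3*, a lysophospholipase D that makes lysophosphatidic acid from lysophospholipids. All mice were C57BL/6 tet-CML mice, in which BCR-ABL1 is switched on by withdrawing doxycycline at 5 weeks of age through SCL-tTA, a transactivator under Scl regulatory sequence that is active in blood stem and progenitor cells, and all were sampled 5 weeks after induction. The controls were *Gdpd3*+/+ (libraries 1, 2 and 3) and the mutants were *Gdpd3*-/- (libraries 5, 6 and 7), which carry a deletion of 5 bases near the start codon in every cell of the body. Cells were sorted from bone marrow as Lineage-Sca-1+cKit+ cells that were CD150+CD48-CD135-. Pooled mice were used, 22 males and 12 females for *Gdpd3*+/+ and 5 males and 5 females for *Gdpd3*-/-. How they were divided over the libraries is not given in the sources used here, and the labels do not name separate animals, so the spread between libraries may be partly technical.

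Receptors of this branch sit in the plasma membrane and answer to small molecules released by neighbouring or damaged cells. ADP, ATP, UTP and UDP-glucose act on the P2Y receptors, which signal through Gi or Gq proteins. Gi-coupled members lower cyclic AMP and Gq-coupled members release calcium through phospholipase C, whereas the proton sensor Gpr65 raises cyclic AMP through Gs when the surroundings turn acidic. In blood-forming tissue, P2ry1 and P2ry12 are best known from platelets, P2ry14 from haematopoietic stem and progenitor cells, and P2ry10, Gpr65 and Gpr132 from lymphocytes and myeloid cells.

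Values are FPKM, fragment numbers divided by exonic length and by the size of the library, which can be compared between genes because they are per length. Depth, the total of the smallest steps into which the values of a library divide, was 4.98 to 6.28 relative units in *Gdpd3*+/+. In *Gdpd3*-/- it was 2.13 to 3.64 of the same units. *Gdpd3* itself was at 2.95 to 7.30 FPKM in *Gdpd3*+/+ and 0.0129 to 0.681 in *Gdpd3*-/-. The sort markers *Kit*, *Ly6a* and *Slamf1* (Sca-1 and CD150 for the latter pair) were present in every library. *Cd48* and *Flt3* (CD135), which the gate excludes at the cell surface, were present too, *Cd48* at 39.8 to 44.8 FPKM against 51.6 to 92.2 and *Flt3* at 9.80 to 11.01 against 36.8 to 46.5. Marker genes of skeletal muscle, neutrophils, B and plasma cells and early progenitors also differed in level between the genotypes, and their values are given beside the receptor genes below. These are bulk libraries, so fewer cells of a type and less RNA per cell cannot be told apart.

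Promoter sequences are shown for 4 of the receptor genes, to set the adjacent *P2ry14* and *P2ry13* and the unlinked *Gpr132* and *P2ry2* side by side. Each run is 300 bases from RefSeq (GRCm38.p6, minus strand of the chromosome, read 5′ to 3′), from 250 bases before the transcript start to 50 after it. The positions are chr3:59153443-59153742 for *P2ry14* (the farthest upstream of 4 listed starts), chr3:59210833-59211132 for *P2ry13*, chr12:112860867-112861166 for *Gpr132* and chr7:101012004-101012303 for *P2ry2* (1 of 2 listed starts). Capitals mark matches on either strand to 4 motifs. These are GAGGAA for the ETS factors, TGTGGT for the RUNX factors, AGATAA for the factors named after GATA, and TGANTCA for AP-1. In these runs no match overlapped another.
P2ry14: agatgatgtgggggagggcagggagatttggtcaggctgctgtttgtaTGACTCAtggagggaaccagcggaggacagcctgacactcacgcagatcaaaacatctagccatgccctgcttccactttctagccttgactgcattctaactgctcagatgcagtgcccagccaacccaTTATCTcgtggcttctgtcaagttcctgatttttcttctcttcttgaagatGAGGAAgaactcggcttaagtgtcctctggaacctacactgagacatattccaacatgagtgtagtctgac
P2ry13: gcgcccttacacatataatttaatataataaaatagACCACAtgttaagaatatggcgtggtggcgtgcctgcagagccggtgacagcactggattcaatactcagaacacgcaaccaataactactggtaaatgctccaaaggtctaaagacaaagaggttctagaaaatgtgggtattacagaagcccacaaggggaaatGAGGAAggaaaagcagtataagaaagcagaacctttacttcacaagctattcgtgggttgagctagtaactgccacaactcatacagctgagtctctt
Gpr132: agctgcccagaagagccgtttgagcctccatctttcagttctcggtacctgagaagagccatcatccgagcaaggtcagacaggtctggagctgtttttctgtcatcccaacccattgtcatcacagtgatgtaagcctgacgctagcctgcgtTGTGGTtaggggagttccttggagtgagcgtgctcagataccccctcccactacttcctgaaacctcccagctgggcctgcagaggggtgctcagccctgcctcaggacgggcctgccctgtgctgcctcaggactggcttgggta
P2ry2: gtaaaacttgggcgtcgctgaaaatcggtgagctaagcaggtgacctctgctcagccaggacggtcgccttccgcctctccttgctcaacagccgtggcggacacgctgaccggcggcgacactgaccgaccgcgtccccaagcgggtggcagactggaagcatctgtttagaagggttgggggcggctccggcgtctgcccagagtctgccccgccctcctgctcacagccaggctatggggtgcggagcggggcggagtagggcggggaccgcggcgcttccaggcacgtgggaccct

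Of 32851 mouse promoters of the same length, 28.3% held the ETS letters, 16.8% the RUNX letters, 11.2% the GATA letters and 7.81% the AP-1 letters. The *P2ry14* run held 1 match each to ETS, GATA and AP-1, and the other 3 listed starts each held 1 ETS match, which is the same site in a pair of overlapping runs. Among those 3 runs, 2 also held a GATA match and 1 an AP-1 match. The *P2ry13* run held 1 ETS and 1 RUNX match, the *Gpr132* run held 1 RUNX match and the *P2ry2* run held none of the 4. Among the receptor genes whose runs are not printed, *Gpr65* held 1 ETS match, *P2ry12* and *P2ry1* held none, and *P2ry10* held GATA, AP-1, RUNX and ETS matches over its 2 listed starts. Such letters are common in promoters, and a match describes the sequence only. *Gpr171* and *Gpr34* had no promoter sequence in the reference table.

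*Gpr171* was the most abundant receptor gene of the 10 in both genotypes. It stood at 30.1, 29.3 and 27.4 FPKM in *Gdpd3*+/+ and at 81.6, 48.4 and 64.1 in *Gdpd3*-/-. The *Gdpd3*+/+ libraries lay close together, and every *Gdpd3*-/- library was above them, with library 6 the lowest and library 5 the highest. The means were 28.9 ± 1.42 and 64.7 ± 16.6 (SD, n = 3), a ratio of 2.24 and a difference of 1.13 on the log2(FPKM + 0.1) scale used for all differences here.

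*P2ry14*, the UDP-glucose receptor, is its neighbour on chromosome 3. It was at 14.9, 16.8 and 16.7 FPKM in *Gdpd3*+/+ and at 33.4, 30.1 and 29.2 in *Gdpd3*-/-. The genotypes did not overlap, and both were tight. The means of 16.2 ± 1.06 and 30.9 ± 2.22 (SD, n = 3) gave a ratio of 1.91 and a log2 difference of 0.93. The ratio of *Gpr171* to *P2ry14* ranged from 1.63 to 2.02 in *Gdpd3*+/+ and from 1.61 to 2.44 in *Gdpd3*-/-, so the adjacent pair kept overlapping proportions across the genotypes.

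**Figure D1:**
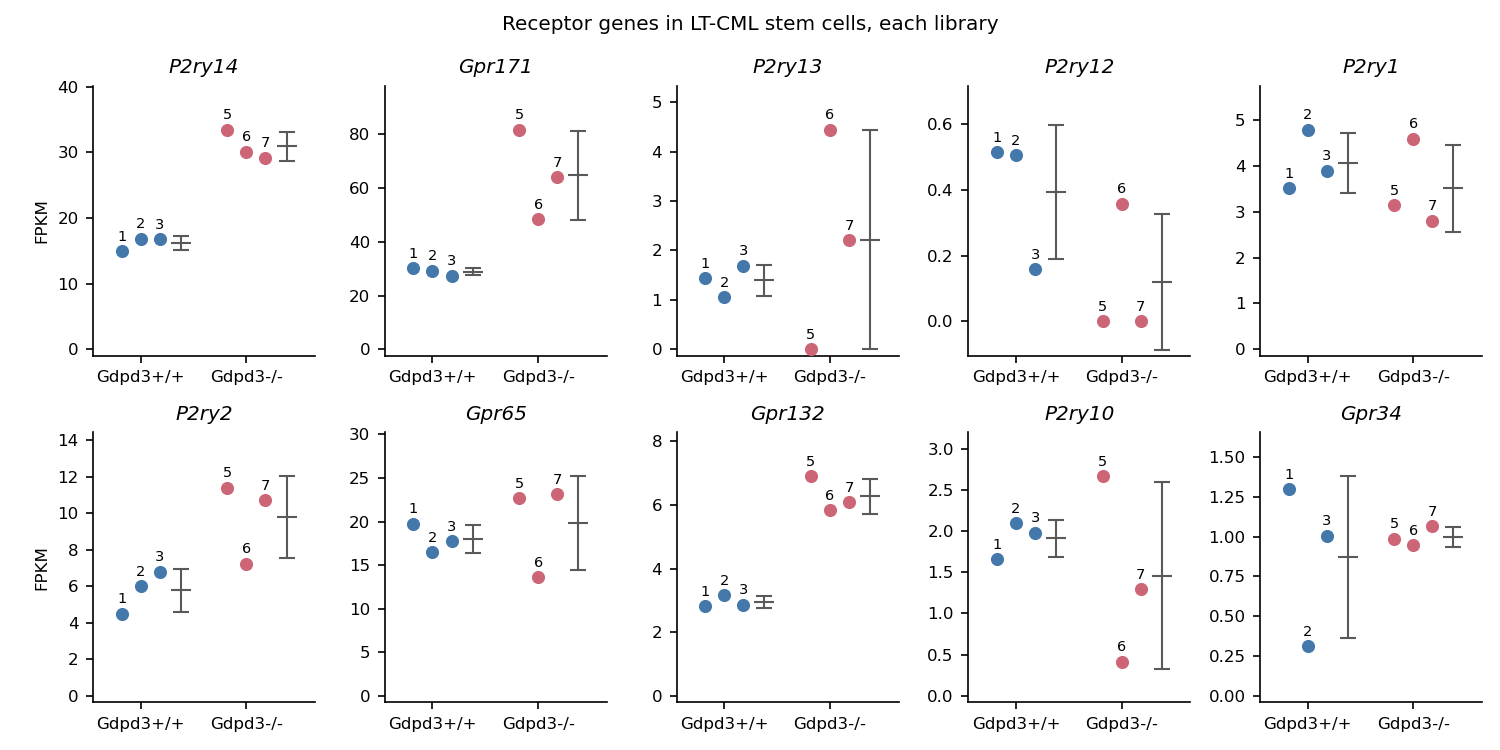
FPKM (linear axes, a separate scale for each gene) of the 10 receptor genes in each of the 6 LT-CML stem cell libraries. Points are libraries numbered as in the text, blue for Gdpd3+/+ and red for Gdpd3-/-, and grey bars beside them are the mean ± SD (n = 3), which for P2ry12 extends below 0. P2ry14, Gpr171, Gpr132 and P2ry2 have no overlap between the genotypes and the other 6 genes overlap.

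The ADP receptor genes *P2ry13* and *P2ry12* lie beyond *P2ry14* on the same chromosome and were low. *P2ry13*, a Gi-coupled ADP receptor, was at 1.43, 1.05 and 1.69 FPKM in *Gdpd3*+/+ and at 0, 4.44 and 2.21 in *Gdpd3*-/-. Libraries 6 and 7 were above every *Gdpd3*+/+ library, and library 5 was listed at 0. The log2 difference was -0.53 with all libraries, 1.14 without library 5 and 0.13 with a pseudocount of 1, so it had no settled sign. In library 5, 150 of the steps used for depth would have given *P2ry13* 0.0279 FPKM, and the size of a step in reads was not established.

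*P2ry12*, the receptor blocked by clopidogrel on platelets, was the lowest of the 10 genes in both genotypes. It was at 0.515, 0.506 and 0.158 FPKM in *Gdpd3*+/+, at 0.358 in library 6 of *Gdpd3*-/- and listed at 0 in libraries 5 and 7. The genotypes overlapped through libraries 3 and 6. These levels correspond to at most 50.3 units of 150 steps in a library. The log2 difference moved from -3.42 to -0.32 as the pseudocount was changed from 0.01 to 1.

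*P2ry1*, the Gq-coupled ADP receptor gene, lies 1740 kb from *P2ry12*. It was at 3.51, 4.78 and 3.89 FPKM in *Gdpd3*+/+ and at 3.14, 4.59 and 2.81 in *Gdpd3*-/-. The means of 4.06 ± 0.654 and 3.51 ± 0.951 (SD, n = 3) overlapped, and the log2 difference was -0.22. In *Gdpd3*-/- all 3 ADP receptor genes were highest in library 6, where the summed FPKM of 11 megakaryocyte and platelet markers was 660 against 356 and 382 in libraries 5 and 7. The marker sum was 367 to 463 in *Gdpd3*+/+, and *Gp6* was listed at 0 in every library of both genotypes. The part of these cells in the ADP receptor values was not tested.

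*P2ry2*, the Gq-coupled receptor gene for ATP and UTP, was at 4.51, 6.02 and 6.81 FPKM in *Gdpd3*+/+ and at 11.4, 7.25 and 10.7 in *Gdpd3*-/-. The genotypes did not overlap, but the gap between library 3 and library 6 was narrow. The ratio of the means, 5.78 ± 1.17 and 9.80 ± 2.23 (SD, n = 3), was 1.70 and the log2 difference was 0.74. After scaling by the trimmed mean of M values or after quantile normalisation the genotypes overlapped, though the mean stayed higher in *Gdpd3*-/-.

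The proton sensors differed from each other. *Gpr132* was at 2.83, 3.16 and 2.87 FPKM in *Gdpd3*+/+ and at 6.90, 5.83 and 6.08 in *Gdpd3*-/-. There was no overlap, and the means of 2.95 ± 0.179 and 6.27 ± 0.558 (SD, n = 3) gave a ratio of 2.13 and a log2 difference of 1.06. *Gpr65*, the Gs-coupled sensor, was at 19.7, 16.5 and 17.7 FPKM in *Gdpd3*+/+ and at 22.7, 13.6 and 23.1 in *Gdpd3*-/-. It overlapped because library 6 was the lowest of all and libraries 5 and 7 the highest, and its log2 difference of 0.10 became -0.11 after trimmed-mean scaling. The ratio of *Gpr132* to *Gpr65* was 0.143, 0.191 and 0.162 in *Gdpd3*+/+ and 0.304, 0.428 and 0.263 in *Gdpd3*-/-. Scaling a library by a single factor, as the trimmed-mean scaling does, leaves this ratio unchanged, whereas quantile normalisation can change it.

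The lysophosphatidylserine receptor genes were low and overlapped. *P2ry10* was at 1.66, 2.10 and 1.98 FPKM in *Gdpd3*+/+ and at 2.66, 0.414 and 1.29 in *Gdpd3*-/-. The *Gdpd3*-/- libraries surrounded the *Gdpd3*+/+ range, with library 5 above it and libraries 6 and 7 below, and the log2 difference was -0.67. *Gpr34* was at 1.30, 0.313 and 1.01 FPKM in *Gdpd3*+/+ and at 0.987, 0.946 and 1.07 in *Gdpd3*-/-. Here the spread lay in *Gdpd3*+/+, through library 2, and the log2 difference of 0.35 became -0.18 without that library and -0.20 after quantile normalisation. *Gpr34* was the exception to a wider spread in *Gdpd3*-/-, since the coefficient of variation was larger in *Gdpd3*-/- for the other 9 genes.

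By count, 4 of the 10 genes did not overlap between the genotypes, all of them higher in *Gdpd3*-/-. Over the 24689 genes with a mean of at least 0.05 FPKM, which include all 10, 31.8% did not overlap, 23.5% being higher and 8.27% lower in *Gdpd3*-/-. Since the genes were chosen with this contrast known, nothing is read from their count. The median log2 difference was 0.23 over the 10 genes and 0.24 over all genes tested. Scaling by the trimmed mean of M values brought the all-gene median to 0.05 and quantile normalisation to -0.01. Under both of these, *P2ry14*, *Gpr171* and *Gpr132* stayed higher without overlap. The share of all genes without overlap under these scalings was not worked out, so nothing is read from this either. The lowest differences of *P2ry14*, *Gpr171* and *Gpr132* over all settings were 0.72, 0.92 and 0.86, respectively.

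**Figure D2:**
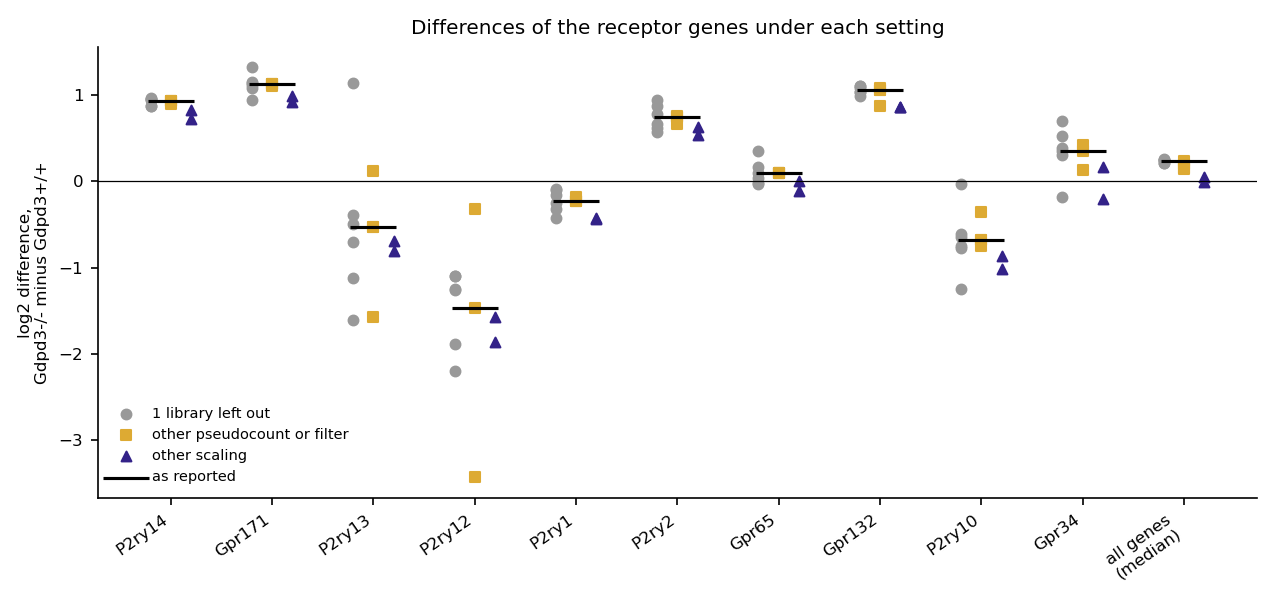
Log2 difference (Gdpd3-/- minus Gdpd3+/+, vertical axis) of each receptor gene as reported (black bar) and with 1 library left out, another pseudocount or filter, or another scaling (symbols in the key), with the median over all genes tested at the right. P2ry14, Gpr171, Gpr132 and P2ry2 stay above 0 in every setting, P2ry1, P2ry10 and P2ry12 stay below 0, and P2ry13, Gpr65 and Gpr34 cross it.

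In *Gdpd3*+/+ the order of levels was *Gpr171*, then *Gpr65* and *P2ry14*, then *P2ry2* and *P2ry1*, then *Gpr132*, then *P2ry10*, *P2ry13*, *Gpr34* and *P2ry12*. Genes joined here overlapped with their neighbour in the order over the 3 libraries. In *Gdpd3*-/- the order was *Gpr171*, *P2ry14*, *Gpr65*, *P2ry2*, *Gpr132*, then *P2ry1*, *P2ry13*, *P2ry10* and *Gpr34*, then *P2ry12*. The 10 genes summed to 80.2 to 80.6 FPKM in *Gdpd3*+/+ and to 163, 116 and 141 in *Gdpd3*-/-. *Gpr171*, *Gpr65* and *P2ry14* together made up 77.1% to 80.4% of the sum in *Gdpd3*+/+ and 79.4% to 84.6% in *Gdpd3*-/-.

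Depth moved with genotype, since each *Gdpd3*-/- library held fewer steps than each *Gdpd3*+/+ library. Counted in units of 150 steps, *Gpr171* had 2223 to 2725 over the 6 libraries, *P2ry14* 854 to 1312 and *Gpr132* 229 to 345. These numbers overlapped between the genotypes, so the higher FPKM in *Gdpd3*-/- were similar numbers of steps in a smaller total. *Gpr65* had 1342 to 1485 in *Gdpd3*+/+ and 661 to 795 in *Gdpd3*-/-, without overlap. Within *Gdpd3*-/- its number of steps did not follow depth, with 661 units in library 5 and 677 in the deeper library 6. The part of depth in the differences was not tested, and it cannot be told apart from genotype.

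Library 6, the deepest of *Gdpd3*-/-, was the lowest *Gdpd3*-/- library for 6 of the 10 genes and the highest for the 3 ADP receptor genes. Without it, 7 of the 10 genes did not overlap between the genotypes, 5 higher and 2 lower. With 2 *Gdpd3*-/- libraries left, 46.1% of all genes tested did not overlap, 34.7% higher and 11.5% lower, and nothing is read from the count. The summed level of 11 skeletal muscle markers was 861 to 1272 FPKM in *Gdpd3*+/+ and 11151, 16045 and 2115 in libraries 5, 6 and 7. All 11 muscle markers were higher in *Gdpd3*-/- without overlap, and the part of muscle RNA in the receptor values was not tested.

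Markers of blood cells also moved with genotype. The summed level of 8 early progenitor markers was 235 to 242 FPKM in *Gdpd3*+/+ and 400 to 540 in *Gdpd3*-/-, with 7 of 8 higher without overlap and none listed at 0. The 8 neutrophil markers summed to 19984 to 23040 FPKM against 5413 to 11135, with 5 lower without overlap. *S100a8* and *S100a9* made up most of this sum in every library, and *Ly6g*, *Cxcr2* and *Mmp8* overlapped between the genotypes. The 11 macrophage and monocyte markers, relevant to *Gpr34* and *P2ry13*, summed to 54.2 to 65.9 FPKM against 69.4 to 86.1, and none was listed at 0. The 10 T and NK cell markers, relevant to *P2ry10* and *Gpr65*, summed to 8.31 to 10.2 FPKM against 6.94 to 14.03, with *Cd3d*, *Cd3e*, *Cd3g*, *Cd8a*, *Cd8b1*, *Cd2* and *Ncr1* listed at 0 in at least 1 library. The 7 B and plasma cell markers, also relevant to *P2ry10*, *Gpr65* and *Gpr132*, summed to 2040 to 2640 FPKM in *Gdpd3*+/+ and 963 to 1786 in *Gdpd3*-/-, without overlap. Of these, 1 was higher and 2 were lower without overlap, *Jchain* made up most of the sum, and *Ms4a1* and *Pax5* were listed at 0 in at least 1 library. The part of any of these cells in the receptor values was not tested.

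The genes lie on 4 chromosomes, and positions here are in mm9, the build in the submitters' processing notes. *Gpr171* (chr3:58900370-58905743), *P2ry14* (chr3:58918548-58934546), *P2ry13* (chr3:59011818-59014804) and *P2ry12* (chr3:59020193-59066753), all on the minus strand, fill a stretch of 166 kb. *P2ry1* is at chr3:60806717-60812901 on the plus strand. *P2ry2* (chr7:108145086-108160505, minus), *Gpr65* (chr12:99506845-99514834, plus), *Gpr132* (chr12:114089087-114099127, minus), *P2ry10* (chrX:104283831-104300313, plus) and *Gpr34* (chrX:13209215-13217984, plus) lie apart. The gene models have 2 to 5 exons and 1797 to 3886 exonic bases, of which 0 are shared with another listed gene.

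*Gpr171* and *P2ry14*, separated by 12.8 kb, had log2 differences of 1.13 and 0.93. *P2ry13*, 77.3 kb farther, and *P2ry12*, another 5.39 kb on, had -0.53 (1.14 without library 5) and -1.46 and overlapped between the genotypes. The whole stretch lies inside the span of *Med12l*, a Mediator kinase module subunit gene on the opposite strand. *Med12l* was at 3.08, 3.66 and 3.83 FPKM in *Gdpd3*+/+ and 2.81, 5.57 and 2.84 in *Gdpd3*-/-, with a log2 fold change of 0.02 (limma adjusted p = 0.978). The library kit does not mark strand, so intronic transcripts of *Med12l* that cross a receptor exon could not be separated from it. The pseudogene *Rpl13-ps6*, whose span overlaps *Gpr171*, had a log2 fold change of 0.37 (limma adjusted p = 0.118) and *Cask*, whose span holds *Gpr34*, had -0.19 (limma adjusted p = 0.692).

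**Figure D3:**
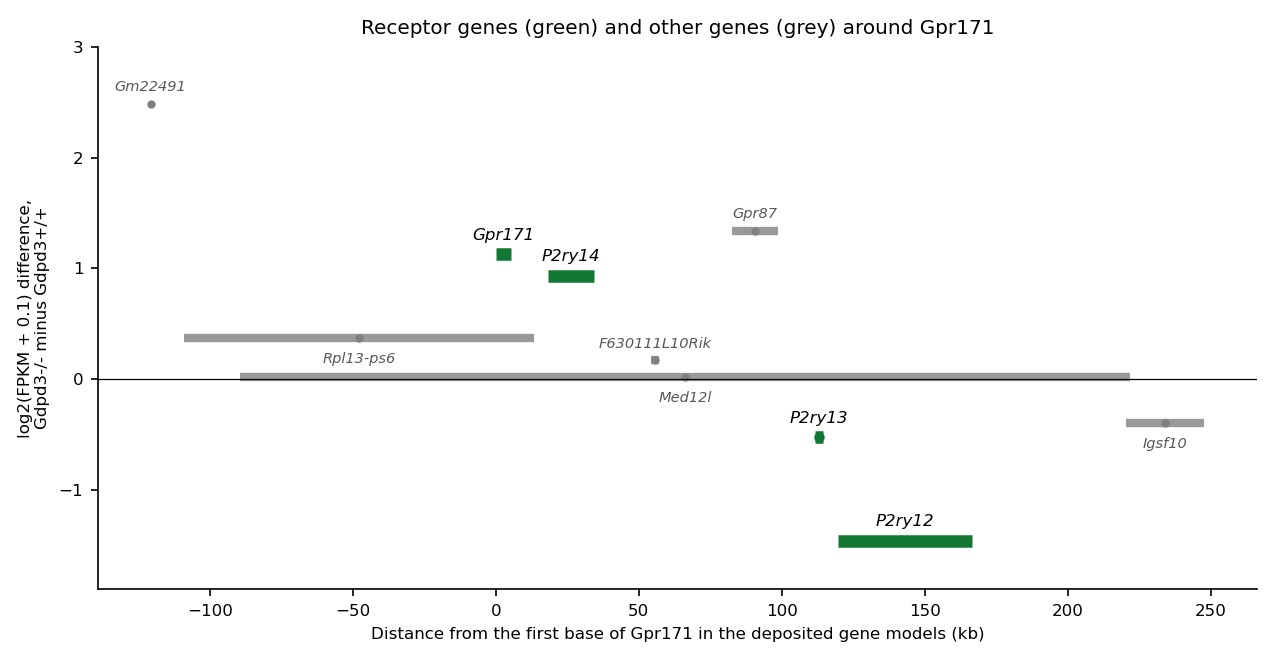
Log2 difference (Gdpd3-/- minus Gdpd3+/+, vertical axis) against distance in kb from the lowest base of Gpr171 (horizontal axis) for the 4 receptor genes of the chromosome 3 stretch (green) and the other tested genes around them (grey). Bars span each gene. Gpr171 and P2ry14 lie near 1, P2ry13 (-0.53, or 1.14 without library 5) and P2ry12 lie below 0, and Med12l, which spans all 4, lies at 0.02.

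Around the 10 genes, 53 other genes lay within 250 kb and 43 were tested. Limma called 0 of them at an adjusted p under 0.05, beside 1.71% of all genes tested, and 8 had an unadjusted p under 0.05, beside 22.2% of all genes. Without library 6, 1 of them was called, and without library 7, 7 were. Their median log2 fold change was 0.33. Without overlap, 10 were higher and 3 were lower, beside 23.5% and 8.27% of all genes tested. The closely related *P2ry10b*, 44.0 kb from *P2ry10*, was at 0.682, 1.04 and 1.22 FPKM in *Gdpd3*+/+ and at 0.00676, 0.127 and 0.976 in *Gdpd3*-/- (limma adjusted p = 0.268). Reads that fit both of these related genes could have been counted for either. *P2ry6*, a UDP receptor gene 32.2 kb from *P2ry2*, was below 1 FPKM in every library but library 5, where it reached 2.03.

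Several genes tracked the receptor genes over the 6 libraries. Among 15095 genes with a mean of at least 1 FPKM, those most like *P2ry14* were *S100a10* (Pearson r = 0.998), *Rps6* (0.998) and *Dlgap4* (0.997). Those most like *Gpr171* were *Imp3* (0.998), *Gm23634* (0.998) and *Mdga1* (0.998), and those most like *Gpr132* were *Pdgfrb* (0.999), *Fam32a* (0.997) and *Psmb8* (0.997). Such values were frequent, since 4.93%, 2.31% and 4.24% of the genes reached an r of 0.95 with *P2ry14*, *Gpr171* and *Gpr132*. Between receptor genes, r was 0.994 for *P2ry14* with *Gpr132* and 0.943 for *P2ry14* with *Gpr171*. All these values share 6 libraries, their depths and the genotype difference, and are descriptions.

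Genes that work with these receptors were compared in the same fit, from 7 lists of other receptors, enzymes, ligand suppliers and transducers. Of 82 genes, 78 were tested, and limma called 1 higher and 1 lower in *Gdpd3*-/-, beside 1.09% and 0.616% of all genes tested. Their median log2 fold change was 0.07. Without overlap, 13 were higher and 9 were lower, beside 23.5% and 8.27% of all genes tested. Both called genes act on extracellular nucleotides, the ligands of the P2Y receptors.

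*Panx1*, a channel that releases ATP from cells, was at 8.77, 9.86 and 10.03 FPKM in *Gdpd3*+/+ and at 16.5, 17.95 and 14.8 in *Gdpd3*-/-. It rose by 0.77 ± 0.131 (log2 fold change ± SE, limma adjusted p = 0.0483). *Enpp1*, an ectoenzyme that hydrolyses extracellular ATP, was at 5.40, 5.33 and 6.06 FPKM in *Gdpd3*+/+ and at 2.007, 2.002 and 2.86 in *Gdpd3*-/-. Its log2 fold change was -1.27 ± 0.218 (SE, limma adjusted p = 0.0487). Neither gene overlapped between the genotypes, and each had an exact two-sided permutation p of 0.1, the smallest that 3 libraries against 3 allow. Over the settings tried, the adjusted p ranged from 0.0174 to 0.244 for *Panx1* and from 0.0115 to 0.275 for *Enpp1*, and both kept their direction. Each call was lost when any library other than library 7 was left out. The other 16 genes of nucleotide release and breakdown did not pass, among them the most abundant, *Adk* (adenosine kinase, limma adjusted p = 0.811) and *Ada* (adenosine deaminase, limma adjusted p = 0.252).

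**Figure D4:**
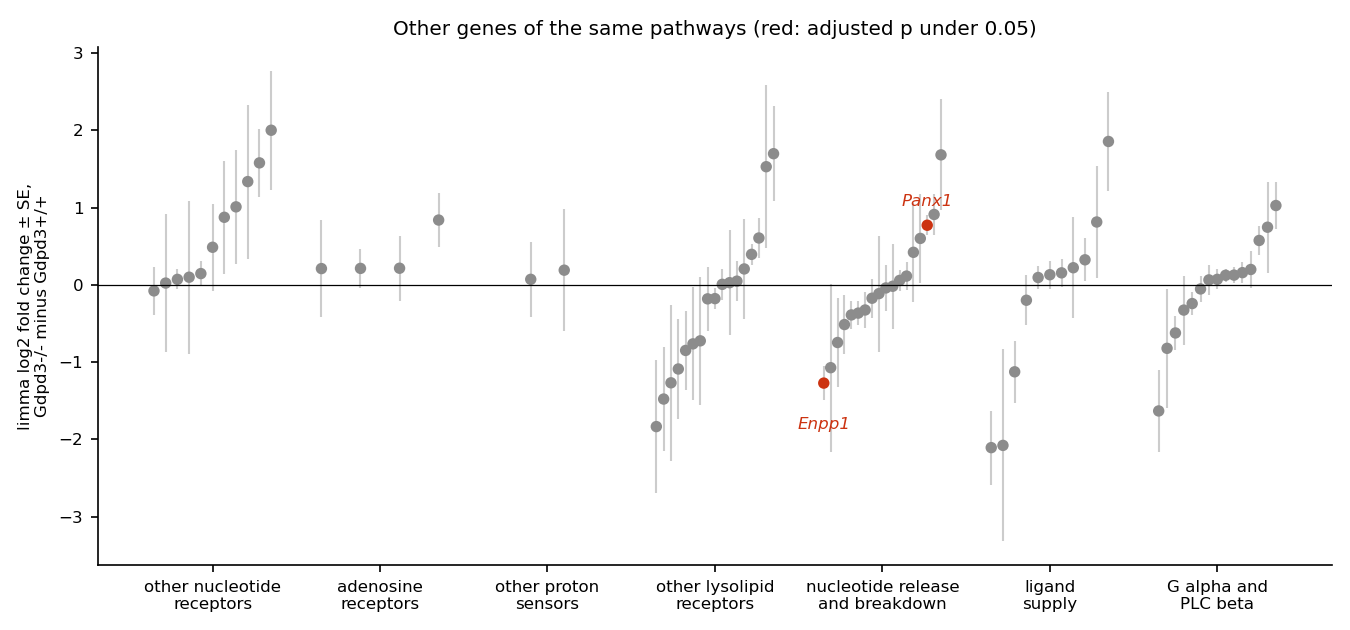
Limma log2 fold change ± SE (Gdpd3-/- minus Gdpd3+/+, vertical axis) of the 78 tested genes of 7 related lists (horizontal axis), each point a gene and red points an adjusted p under 0.05. Panx1 at 0.77 and Enpp1 at -1.27 are the called genes.

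None of the 34 other receptor genes tested was called by limma. An unadjusted p under 0.05 was found for 5 of them, beside 22.2% of all genes tested. Without overlap, 6 were higher and 2 were lower, beside 23.5% and 8.27% of all genes. The ATP-gated channels *P2rx4* and *P2rx1*, at 16.7 to 25.4 and 17.3 to 22.0 FPKM over all libraries, were in the range of *P2ry14* and *Gpr65* and overlapped between the genotypes. *P2rx7*, the ATP-gated channel of inflammasome activation, singled out after its values were seen, was at 1.92, 1.77 and 2.12 FPKM in *Gdpd3*+/+ and at 10.5, 6.71 and 3.003 in *Gdpd3*-/-, with a log2 fold change of 1.58 (limma adjusted p = 0.109). The adenosine receptor genes *Adora2a* and *Adora2b* had log2 fold changes of 0.21 and 0.84 (limma adjusted p = 0.615 and 0.222). The proton sensor gene *Gpr4* overlapped (limma adjusted p = 0.939), as did the lysolipid receptor genes *Lpar6* and *S1pr2* (limma adjusted p = 0.984 and 0.492).

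Downstream, the Gi subunit genes *Gnai2* and *Gnai3* were the most abundant of the 15 transducer genes. None of the 15 was called by limma, and 4 had an unadjusted p under 0.05, beside 22.2% of all genes tested. *Gnai2* was at 263 to 280 FPKM in *Gdpd3*+/+ and 292 to 303 in *Gdpd3*-/-, a log2 fold change of 0.13 (limma adjusted p = 0.414). *Gnai3* was at 81.8 to 93.5 FPKM in *Gdpd3*+/+ and 39.7 to 73.6 in *Gdpd3*-/-, a log2 fold change of -0.62 (limma adjusted p = 0.171). Of 11 ligand-supply genes, none was called and 3 had an unadjusted p under 0.05, beside the same 22.2% of all genes. The most abundant of them were *Abhd16a*, a phosphatidylserine lipase (limma adjusted p = 0.693), and *Ugp2*, which makes UDP-glucose (limma adjusted p = 0.507).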

How the data were processed

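RNA-Seq libraries (SMART-Seq v4 cDNA, Nextera XT, paired-end reads of 150 bases) were made from 6 samples, and the labelled genotype set their group. The authors made the FPKM values, which they deposited for 36976 genes with positions and exonic lengths in bases. The submitters' processing notes name Trimmomatic, Trim Galore, cutadapt 1.16, STAR 2.6.1a, featureCounts 1.6.1, DESeq2 and mm9. The authors' DESeq2 table (base mean signal, log2 fold change, SE, Wald score, p-value and adjusted p-value) was deposited too and was not used here. Of the FPKM values, 13998 to 19153 a library were checked. Multiplied by length, all were whole multiples of a smallest step (100% within 0.05 of a whole number), and the total of steps gave the depths. A step was taken to be the same in every library. What it stands for, a base or part of a read, was not established. The values were not converted to read counts, and no count model was run.

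Genotype was the single term of a limma-trend model (limma 3.58.1, R 4.3.3) of log2(FPKM + 0.1). It took in 24689 genes whose FPKM averaged 0.05 or more, and adjusted p-values (Benjamini-Hochberg) refer to all of them. Single genes were compared by exact permutation (SciPy 1.17.1, 20 assignments). The functions were tested on simulated data. Alternatives were other pseudocounts, filters and scalings, array weights, a fit with no trend, and the omission of single libraries. Protein sequences were not analysed here.

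The receptor genes and the gene lists were chosen with earlier results of these data known. The text names all 10 receptor genes. From each related list it names every called gene and the 2 with the highest mean FPKM. It names genes whose span overlaps a receptor gene, and the 3 genes with the highest r to *P2ry14*, *Gpr171* and *Gpr132*. 1 gene that this rule names is not reported here. Other genes were named after their values were seen. Of the identifiers, 32350 matched a current symbol.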

Additional observations from a re-analysis of the deposited data

How the results depend on the processing

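The number of genes called over all genes, 422 (270 higher and 152 lower), was 225 with a pseudocount of 1, 213 with no filter, 673 among genes averaging 1 FPKM or more, 153 with no intensity trend and 240 with array weights. Trimmed-mean scaling gave 117 higher and 237 lower, and quantile normalisation 121 higher and 210 lower. Leaving out 1 library gave from 0 to 3413 called genes. The lowest was without *Gdpd3*+/+ library 1, where 3356 genes fell under 0.05 before adjustment, and the highest without *Gdpd3*-/- library 7. The number was 1 without library 2, 21 without library 3 and 187 without library 5.

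Of the related genes, 2 were called as reported, 1 (*Enpp1*) under trimmed-mean scaling, 1 (*Enpp1*) under quantile normalisation, and 0 with a pseudocount of 1, no filter, no intensity trend or array weights. Leaving out 1 library gave 0 (without any of libraries 1, 2, 3, 5 and 6) to 10 (without library 7). Neighbouring genes called went from 0 to 1 among genes averaging 1 FPKM or more, and from 0 to 7 when 1 library was left out (1 without library 6, 7 without library 7). Receptor genes that did not overlap went from 4 to 7 when 1 library was left out (7 without library 6, where 46.1% of all genes tested did not overlap). The log2 difference of *P2ry13* without library 5 was 1.14. For these shifts, the cause was not tested by any comparison.

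No paired analysis was possible because the replicate numbers in the labels, 1, 2 and 3 against 5, 6 and 7, share none. There were 3 libraries a genotype. *P2ry12* had the smallest number of steps of the 10 genes, at most 50.3 units of 150 steps in a library, which limits the precision of its values.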
